A study of Homo sapiens with 22 samples.

Results

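The RAS inhibitor RMC-7977 was compared with Vehicle in H2110 xenograft tumours by RNA sequencing. All 4 RMC-7977 tumours and all 6 Vehicle tumours of the series were taken by their labels, 10 of its 22 tumours, and every gene that passed a filter on low counts was tested in a model of these 10 tumours alone. H2110 is a human lung adenocarcinoma cell line, and the labels give its genotype as WT in both groups. The cells were injected, the tumours grew to about 300 mm³, and RMC-7977 at 10 mg/kg or Vehicle was then given by mouth for 3 days before the tumours were collected. RNA was total RNA in libraries that keep the strand by dUTP. The tumours all derive from a single cell line, the host species is not stated, and nothing in the labels says that each tumour came from its own animal. A p-value here thus reflects the spread among these tumours, part of which may be technical.

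RAS proteins are small GTPases that carry signals from growth factor receptors. When bound to GTP they activate RAF, MEK and ERK kinases, and ERK raises a short-lived set of transcripts that includes its own brakes, the DUSP phosphatases and the Sprouty proteins, and the ETS factors of the PEA3 group. RMC-7977 binds cyclophilin A, and that pair then binds the GTP-bound form of RAS proteins and blocks its contact with effectors. In lung epithelium the pathway drives growth and takes part in the choice between proliferation and differentiation.

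The libraries held 10353740 to 17265754 counts. RMC-7977 replicate 3 and Vehicle replicate 1 stood apart from the other 8. Their median correlation with the other libraries was 0.927 and 0.916, against 0.961 to 0.973 for the rest, and their genes of high GC content read low, with a rank correlation between deviation and GC content of -0.497 and -0.559. The other Vehicle libraries had correlations with GC content of 0.277 to 0.441 and the other RMC-7977 libraries of 0.0171, 0.0753 and 0.328, so GC content moved with the group as well, and its part in the results was not tested beyond the GC content correction given with the counts. In RMC-7977 replicate 3 only 5.02% of detected genes had 1 or 2 counts, against 13.4% to 21.4% in the other 9. Results below are therefore given with all 10 tumours, and for the genes and lists they turn on also without these 2.

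**Figure D1:**
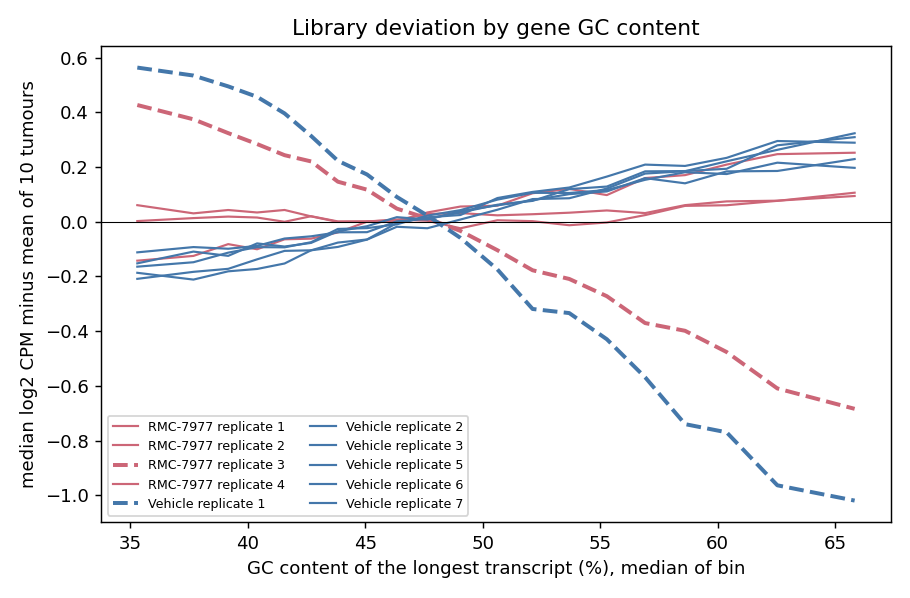
Median deviation of each library from the mean of the 10 tumours (log2 CPM, vertical axis) in bins of genes by the GC content of the longest transcript (horizontal axis). The dashed lines of RMC-7977 replicate 3 and Vehicle replicate 1 fall with GC content, while the lines of the other libraries are level or rise.

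After 3 days of RMC-7977 the transcripts that report ERK activity were lower. Beyond them, the genes that fell and passed whichever single tumour was left out included PAPPA, PTGS1, CYP24A1 and HAL, and those that rose and did so included TSC22D3, SOCS2, HDAC9, RHOA, SCIN and P3H2. With all 10 tumours, 91 of 16212 genes tested passed an adjusted p of 0.05, which is 0.561% of them (quasi-likelihood F-test of edgeR, p adjusted by Benjamini-Hochberg). Of these, 37 (0.228% of the genes tested) were higher and 54 (0.333%) lower under RMC-7977, and 77 changed at least 2-fold. In each of the 91 the 4 RMC-7977 tumours lay outside the range of the 6 Vehicle tumours. This is no separate support, because a test of this kind tends to call genes whose groups are apart. Genes that did not pass, NOP56 and HSPA8 among them, did not overlap either, and the share over all genes tested is not given here. Only 26 of the 91 belonged to any of the 70 gene lists used here, and 65 to none. The median log2 fold change over all genes tested was -0.00968.

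Without RMC-7977 replicate 3 and Vehicle replicate 1 the count rose to 1395 of 16499 genes (8.46%), of which 697 (4.22%) were higher and 698 (4.23%) lower. Of the 91 genes, 90 passed again. Most of this difference in count came with Vehicle replicate 1: 1257 genes (7.81%) passed without it alone, and 65 (0.391%) without RMC-7977 replicate 3 alone. Leaving out any other single tumour gave 18 to 216 calls, with the lowest counts without RMC-7977 replicate 1 (18), RMC-7977 replicate 2 (23) and Vehicle replicate 7 (24). After a correction of each library for a smooth trend on GC content, 244 genes passed with all 10 tumours, 85 of them among the 91. The spread between tumours of a group, as the biological coefficient of variation, was 0.304 with all 10 tumours and 0.184 without the 2 libraries.

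**Figure D2:**
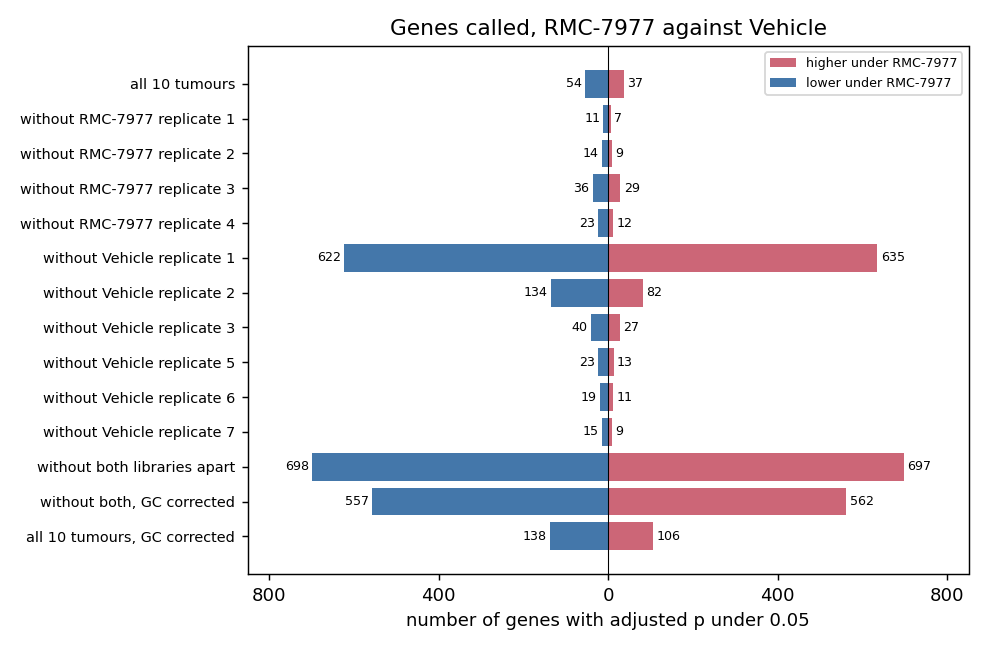
Number of genes higher (right) and lower (left) under RMC-7977 at an adjusted p under 0.05, with all 10 tumours, without each tumour in turn, without both libraries that stood apart, and after a GC content correction. The counts run from 7 higher and 11 lower without RMC-7977 replicate 1 to 697 and 698 without both libraries.

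**Figure D3:**
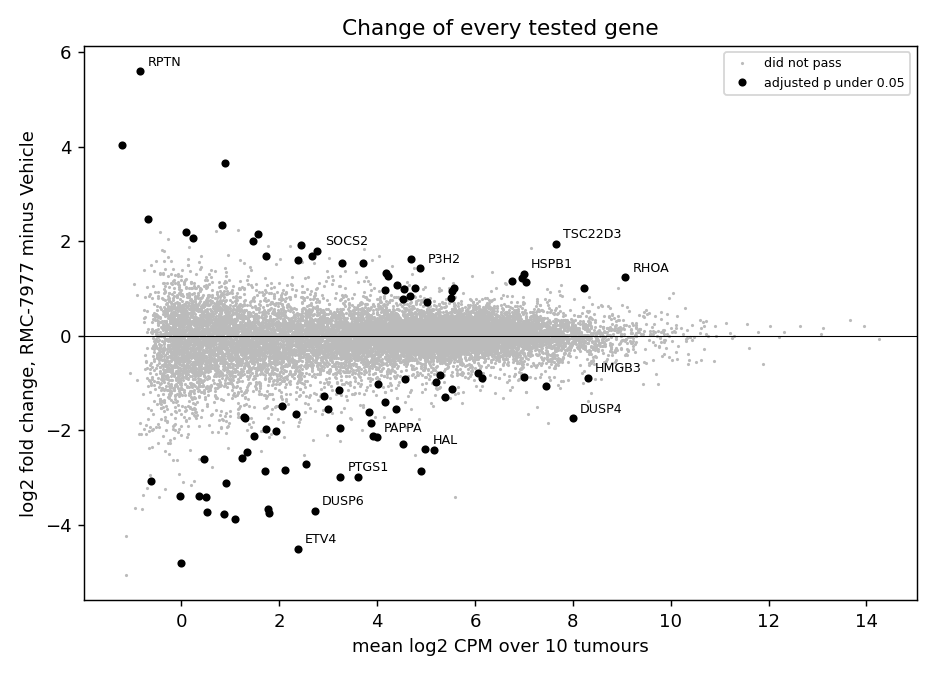
Log2 fold change of every tested gene (vertical axis, RMC-7977 minus Vehicle) against its mean log2 CPM over the 10 tumours (horizontal axis), with the 91 genes past an adjusted p of 0.05 in black. ETV4 and DUSP6 lie low, and TSC22D3 and RHOA lie high among the more abundant genes.

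The transcripts that ERK raises fell furthest among the lists. Of the 9 tested genes of the ERK output list, 6 fell and none rose, all 9 had a negative fold change, and the list's median log2 fold change was -2.72. Over all genes tested, 0.333% fell and 51.1% had a negative fold change. Without the 2 libraries 8 of 9 fell, beside 4.23% of all genes, with a median of -2.59. The list is the pathway's known output and was chosen with results of these data known, so its direction is a check of the treatment and not a separate finding.

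DUSP6 (chr12:89347232-89353271 in hg38), a cytoplasmic phosphatase that inactivates ERK, held 1.43, 1.02, 1.77 and 1.44 CPM (the count scaled to library size) in RMC-7977 replicates 1 to 4, against a lowest, median and highest of 8.1, 21.1 and 26 CPM in Vehicle. ETV4 (chr17:43527844-43579620), an ETS factor of the PEA3 group, held 0.572, 1.1, 0.422 and 1.1 CPM in the same order, against 6.8, 20.1 and 29.5 in Vehicle. For both genes every treated tumour lay below every Vehicle tumour, and the gap between the groups was wider than the range within the treated group. The log2 fold change was -4.50 (SE 0.48, adjusted p 0.00177) for ETV4 and -3.70 (SE 0.36, adjusted p 0.00177) for DUSP6, and without the 2 libraries -4.47 (adjusted p 6.44e-05) and -3.79 (adjusted p 0.000697). DUSP4, a nuclear member of this phosphatase family, was far more abundant and fell less: it held 104, 161, 108 and 127 CPM under RMC-7977 and 308, 420.0 and 504 in Vehicle, a log2 fold change of -1.74 (SE 0.19, adjusted p 0.00183; without the 2 libraries -1.76, adjusted p 4.65e-05). About 1 part in 3 of the DUSP4 level was thus retained (fold 0.299), against 0.0769 for DUSP6 and 0.0442 for ETV4.

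ETV5, the second PEA3 factor in the list and a regulator of alveolar type 2 cells, held 1.43, 1.1, 1.44 and 3.71 CPM against 6.64, 12.8 and 18.6 in Vehicle (log2 fold change -2.72, adjusted p 0.00818; without the 2 libraries -2.59, adjusted p 0.00612). PHLDA1, an early growth factor response gene, held 1.24, 1.26, 1.6 and 1.24 CPM against 3.65, 8.86 and 18.6 (log2 fold change -2.84, adjusted p 0.0082; without the 2 libraries -3.0, adjusted p 0.00473). SPRY4, a Sprouty inhibitor of receptor signalling, fell from a mean of 3.39 ± 1.34 (SD, n = 6) to 0.302 ± 0.285 CPM (SD, n = 4), a log2 fold change of -3.40 (adjusted p 0.0278; without the 2 libraries -3.10, adjusted p 0.00254). The groups did not overlap for any of these genes. ETV5 and PHLDA1 dropped out without RMC-7977 replicate 1 (adjusted p 0.0593 for both), and PHLDA1 also without RMC-7977 replicate 2 (0.0525). ETV4, DUSP6 and DUSP4 passed whichever single tumour was left out.

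Among the immediate early genes, which respond to growth factors within minutes, 2 of 17 fell and none rose, with a list median of -0.34. The share that fell over all genes tested was 0.333%. EGR1 (chr5:138465490-138469315), a zinc finger factor, held 0.191, 0.315, 0.422 and 2.34 CPM under RMC-7977 against 2.81, 11 and 18.1 in Vehicle. The value of replicate 4 was the highest of the treated tumours and came close to the lowest Vehicle value, which was that of Vehicle replicate 1. FOSL1, the AP-1 subunit FRA1, held 0.381, 1.57, 0.422 and 1.72 CPM against 3.81, 7.96 and 12.7. The log2 fold changes were -3.67 (SE 0.66, adjusted p 0.0301) and -2.85 (SE 0.51, adjusted p 0.029), and with 8 tumours -3.63 (adjusted p 0.00872) and -2.73 (adjusted p 0.00483). Both calls were lost without RMC-7977 replicate 1, 2 or 3 or Vehicle replicate 3, 5, 6 or 7, and that of FOSL1 also without RMC-7977 replicate 4, at adjusted p up to 0.132 for EGR1 and 0.122 for FOSL1. In the other 8 tumours 6 of 17 fell, MYC (log2 fold change -1.04, adjusted p 0.00726), NR4A2 (-1.0) and FOS (-0.78) among them, beside 4.23% of all genes tested.

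Genes for secreted proteins that fell included PAPPA, FSTL4, THBS1 and BDNF. PAPPA (chr9:116153804-116402322), a protease that frees insulin-like growth factor from its binding proteins, held 6.96, 7.08, 6.25 and 6.25 CPM, a range of less than 1 CPM, against 17.9, 31.3 and 43.1 in Vehicle. It was 4.43-fold lower (log2 fold change -2.15, SE 0.26, adjusted p 0.00378; without the 2 libraries -2.24, adjusted p 0.00016), and it passed whichever single tumour was left out. FSTL4, of the follistatin-like family, held 6.76, 8.57, 4.89 and 6.67 CPM against 10.8, 28.1 and 46 (log2 fold change -2.12, adjusted p 0.0331; without the 2 libraries -2.17, adjusted p 0.00889). In both genes every treated tumour lay below every Vehicle tumour, and the lowest Vehicle values were those of Vehicle replicate 1.

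THBS1, the matrix protein thrombospondin, held 7.72, 10.1, 4.73 and 7.01 CPM against 15.4, 21.3 and 31.7 (log2 fold change -1.6, adjusted p 0.016; without the 2 libraries -1.46, adjusted p 0.00244). BDNF, a neurotrophin, fell from 12.3 ± 2.69 (SD, n = 6) to 4.18 ± 0.958 CPM (SD, n = 4; adjusted p 0.0159; without the 2 libraries -1.39, adjusted p 0.00392). Leaving out single tumours ended several of these calls. That of THBS1 was lost without RMC-7977 replicate 1 or 4 or Vehicle replicate 7 (adjusted p 0.0807, 0.0625 and 0.0506). FSTL4 passed only without Vehicle replicate 1, 2 or 3 (up to 0.143 in the other fits), and BDNF passed in 7 of 10.

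PTGS1, CYP24A1 and HAL, enzymes of lipid mediator, vitamin and amino acid metabolism, fell. PTGS1 (chr9:122370530-122395703), the constitutive cyclooxygenase that starts prostaglandin synthesis, held 2.29, 2.36, 2.79 and 3.64 CPM against 13.4, 22.2 and 32.7 in Vehicle. CYP24A1 (chr20:54153449-54173973), which inactivates the hormone form of vitamin D, held 2.57, 5.35, 2.11 and 4.4 CPM against 18.6, 29.8 and 36.3. HAL (chr12:95972662-95996365), which breaks histidine down to urocanate and is best known from skin and liver, held 8.19, 10.5, 17.3 and 13 CPM against 29.6, 66.6 and 102. All 12 treated values lay below the lowest Vehicle value of the same gene, and the highest treated HAL value was that of RMC-7977 replicate 3.

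PTGS1 and CYP24A1 were 7.89-fold and 7.86-fold lower, with log2 fold changes of -2.98 (SE 0.32) and -2.98 (SE 0.32) and an adjusted p of 0.00177 for each. HAL was 5.26-fold lower (log2 fold change -2.40, SE 0.32, adjusted p 0.0063). With 8 tumours the log2 fold change was -3.09 (adjusted p 0.000214) for PTGS1, -2.89 (6.44e-05) for CYP24A1 and -2.60 (0.0122) for HAL, and each of the 3 passed whichever single tumour was left out. The carbonic anhydrase CA12 and the peroxisomal oxidase ACOX2 also fell, from 5.75 ± 1.7 to 1.45 ± 0.639 CPM and from 5.35 ± 2.74 to 0.38 ± 0.361 CPM (SD, n = 6 and 4; adjusted p 0.036 and 0.0301; without the 2 libraries 0.0112 and 0.0111), but CA12 passed in 2 and ACOX2 in 4 of the 10 fits that left out 1 tumour. STC1, a secreted regulator of calcium and phosphate, fell with all 10 tumours (4.48, 19.7, 8.44 and 7.9 against 28.8, 63.6 and 134 CPM, log2 fold change -2.86, adjusted p 0.0234) and was the single one of the 91 genes that missed the threshold without the 2 libraries (log2 fold change -2.81, adjusted p 0.0633). STC1 also missed it without RMC-7977 replicate 1, 3 or 4 or Vehicle replicate 6 or 7, at adjusted p up to 0.092.

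CYP24A1 and STC1 belong to the list of vitamin D, calcium and phosphate genes. Of the 13 tested genes of that list, these 2 fell, beside 0.333% of all genes, none rose, and the median log2 fold change was -0.36. With both left out 3 of 13 fell, CYP24A1, the calcium-binding protein CALB2 (-2.01) and the parathyroid hormone-related peptide PTHLH (-1.20), and 2 rose, the phosphate carrier SLC34A2 (0.63) and the vitamin D hydroxylase CYP2R1 (0.53), beside 4.23% and 4.22% of all genes.

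The receptors MILR1, TREM1 and AXL fell as well. MILR1, an inhibitory receptor first described on mast cells, held 0.572, 0.55, 1.1 and 1.03 CPM against 3.16, 7.29 and 23.4 in Vehicle (log2 fold change -3.74, adjusted p 0.0331; without the 2 libraries -3.54, adjusted p 0.0406). Its highest Vehicle value was that of Vehicle replicate 1, and the call was kept only without Vehicle replicate 1, 2 or 6 among the 10 fits (adjusted p up to 0.144). TREM1, an activating receptor of neutrophils and monocytes, fell from 24.8 ± 5.59 to 6.9 ± 1.6 CPM (SD, n = 6 and 4; log2 fold change -1.84, adjusted p 0.00498; without the 2 libraries -1.92, adjusted p 0.000267) and passed in all 10 fits. The receptor tyrosine kinase AXL fell from 33.1 ± 9.15 to 11.4 ± 4.45 CPM (log2 fold change -1.54, adjusted p 0.0333, kept in 3 of 10 fits; without the 2 libraries -1.83, adjusted p 0.00358).

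Markers of blood cells are given here beside MILR1 and TREM1. The leukocyte gene PTPRC stayed at or below 0.518 CPM in every tumour, CD68 at or below 0.0773 CPM, and TYROBP, the signalling partner of TREM1 in myeloid cells, was at 0 in all 10. Of the 19 myeloid markers, 6 were at 0 in all 10 tumours (TYROBP, AIF1, C1QA, C1QC, MARCO and FCGR3A). Their summed level was 90.9 to 1052 CPM in Vehicle, highest in Vehicle replicate 1, and 105 to 248 CPM under RMC-7977, mostly from S100A8 and S100A9, which epithelial cells also make. Other markers were detected as well: CD14 held 8.0 to 17 CPM in Vehicle and 4.37 to 7.06 under RMC-7977, LAPTM5 0.808 to 8.5 and 0.0686 to 1.01, and MRC1 2.31 to 41.6 and 7.49 to 48.7. Of the 6 myeloid markers tested, 5 had a negative and 1 a positive fold change (median -1.08). None passed with all 10 tumours, and 2 fell without the 2 libraries, beside 4.23% of all genes. The part of such cells in these falls was not tested beyond these levels, and in bulk tumours fewer cells of a type and less RNA per cell cannot be told apart.

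TLE6, of the Groucho family of corepressors, fell from a Vehicle lowest, median and highest of 3.54, 5.14 and 5.58 CPM to 0.762, 1.18, 1.01 and 1.38 CPM (log2 fold change -2.12, adjusted p 0.00553; without the 2 libraries -2.17, adjusted p 0.00146) and passed whichever tumour was left out. So did ACTL8, an actin-like gene known from testis, which fell from 16.3 ± 3.6 to 4.23 ± 1.25 CPM (SD, n = 6 and 4; adjusted p 0.00553; without the 2 libraries -1.70, adjusted p 0.0007). SPRED1, which brings the RAS-inactivating protein NF1 to the membrane, held 5.81, 4.8, 6.58 and 5.64 CPM against 9.39, 12 and 17 (log2 fold change -1.16, adjusted p 0.0301; without the 2 libraries -1.14, adjusted p 0.00455). The SPRED1 call was lost without RMC-7977 replicate 1, 2 or 4 or Vehicle replicate 6 or 7, at adjusted p up to 0.134.

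Among the protein-coding genes that passed in both fits, the largest falls in mean CPM after DUSP4 were, in order, those of HMGB3, PDE10A, CEMIP2 and HAL. PDE10A, a cyclic nucleotide phosphodiesterase, held 99.5, 85.7, 163 and 106 CPM against 204, 235 and 286 in Vehicle, HMGB3, a chromatin protein, 193, 260.1, 209 and 218 against 347, 394 and 477, and CEMIP2, a cell-surface hyaluronidase, 75.7, 92.2, 88.5 and 105 against 132, 165 and 214. All 3 changes were near 2-fold or smaller: the log2 fold changes were -1.07 (SE 0.20), -0.88 (SE 0.16) and -0.87 (SE 0.17), with adjusted p of 0.0331, 0.0331 and 0.0428. In the fit to 8 tumours they were -1.24, -0.90 and -0.93, with adjusted p of 0.00012, 0.00308 and 0.00294. Single tumours ended these calls in 6 of 10 fits for PDE10A (RMC-7977 replicate 1, 2 or 4, Vehicle replicate 5, 6 or 7), in these and RMC-7977 replicate 3 for HMGB3, and in 8 for CEMIP2, which passed only without Vehicle replicate 1 or 2 (adjusted p up to 0.16, 0.16 and 0.195).

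TSC22D3, SOCS2 and HDAC9 rose. TSC22D3 (chrX:107713221-107777342), the glucocorticoid-induced leucine zipper, which FOXO factors also induce, held 581, 455, 374 and 454 CPM under RMC-7977 against a lowest, median and highest of 80.2, 108 and 174 in Vehicle. SOCS2 (chr12:93569814-93583487), a feedback inhibitor of growth hormone and cytokine receptors, held 17.1, 11.6, 16.8 and 13.1 CPM against 2.31, 4.43 and 5.7. HDAC9 (chr7:18086949-19002416), a class IIa histone deacetylase that binds MEF2 factors, held 15.3, 12.4, 13.4 and 9.9 CPM against 2.64, 3.7 and 5.19. In each of the 3 genes the lowest treated tumour lay well above the highest Vehicle tumour.

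TSC22D3 was 3.86-fold, SOCS2 3.49-fold and HDAC9 3.2-fold higher, with log2 fold changes of 1.95 (SE 0.25, adjusted p 0.00516), 1.80 (SE 0.25, adjusted p 0.00732) and 1.69 (SE 0.22, adjusted p 0.00553). Each passed whichever single tumour was left out, and without the 2 libraries the log2 fold changes were 2.05, 1.74 and 1.63, with adjusted p of 0.00667, 0.00182 and 0.00169. PIK3IP1, a membrane inhibitor of PI3K, held 31, 39.5, 28.5 and 34.9 CPM against 11, 16.5 and 19.7 (log2 fold change 1.08, adjusted p 0.0234; without the 2 libraries 1.06, adjusted p 0.00106), and dropped out without RMC-7977 replicate 1, 2 or 4 or Vehicle replicate 5 or 7 (adjusted p up to 0.109). TP53INP1, a stress-induced gene linked to p53 and autophagy, rose from 26.5 ± 2.68 to 43.4 ± 3.99 CPM (SD, n = 6 and 4; adjusted p 0.0402; without the 2 libraries 0.73, adjusted p 0.00426), and HERPUD1, a part of protein quality control in the endoplasmic reticulum, from 36 ± 7.84 to 69.6 ± 6.43 CPM (adjusted p 0.032; without the 2 libraries 0.90, adjusted p 0.00414). TP53INP1 passed in 2 and HERPUD1 in 3 of the 10 fits that left out 1 tumour.

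TSC22D3 and PIK3IP1 belong to the FOXO-linked list. With all 10 tumours they were the 2 of 24 tested members that rose, none fell, 14 had a positive fold change and the median was 0.08. Over all genes tested, 0.228% rose and 48.9% had a positive fold change. Leaving out both libraries, 7 of 24 rose, beside 4.22% of all genes, with a median of 0.17: TSC22D3, PIK3IP1, FOXO3 (0.59), KLF9 (0.71), FBXO32 (1.04), ERBB3 (0.55) and CAT (0.52). The insulin pathway genes IRS2 (-0.94) and IGF1R (-0.64) fell, beside 4.23% of all genes.

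RHOA, HSPB1 and ABLIM1 were among the largest rises in mean CPM. RHOA (chr3:49359145-49412998), the small GTPase that controls stress fibres, had the largest of them: it held 896, 1060.0, 900.5 and 774 CPM against 302, 392 and 441 in Vehicle. HSPB1 (chr7:76302544-76304295), the small heat shock protein HSP27, held 282, 288, 139 and 196 CPM against 72.7, 86.3 and 110.5. ABLIM1, an actin-binding LIM protein, held 467, 539, 476 and 379 CPM against 182, 218 and 288. The groups did not overlap in any of them. The lowest treated HSPB1 value was that of RMC-7977 replicate 3, and the lowest Vehicle value of RHOA and of HSPB1 was that of Vehicle replicate 1.

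RHOA was 2.37-fold higher (log2 fold change 1.24, SE 0.16, adjusted p 0.0045; without the 2 libraries 1.18, adjusted p 0.000182) and passed whichever single tumour was left out. SCIN, which severs actin filaments, rose from 79.2 ± 11.7 to 177 ± 25.6 CPM (SD, n = 6 and 4; adjusted p 0.0063; without the 2 libraries 1.27, adjusted p 8.46e-05) and also passed in all 10 fits. HSPB1 was 2.5-fold higher (log2 fold change 1.32, adjusted p 0.0216; without the 2 libraries 1.43, adjusted p 0.000162), and dropped out without RMC-7977 replicate 1 or 2 or Vehicle replicate 6 (0.092, 0.109 and 0.0627). ABLIM1 was 2.03-fold higher (log2 fold change 1.02, adjusted p 0.0234; without the 2 libraries 0.97, adjusted p 0.00294), and dropped out without RMC-7977 replicate 1 or 2 or Vehicle replicate 5, 6 or 7 (up to 0.109). HSPB1 was the single member of 20 in the heat shock list that rose: 16 of 20 had a negative fold change, the median was -0.28, and without the 2 libraries the chaperones HSPA8 (-0.80), HSP90AB1 (-0.56) and AHSA1 (-0.43) fell. Over all genes tested, 0.228% rose and 51.1% had a negative fold change, and 4.23% fell without the 2 libraries.

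P3H2 (chr3:189956728-190122437), which hydroxylates prolines of basement membrane collagen, held 55.9, 68.3, 39 and 50.8 CPM against 18.2, 19.3 and 22.7 in Vehicle, a range so narrow in Vehicle that the lowest treated tumour was well clear of it. It was 2.69-fold higher (log2 fold change 1.43, SE 0.17, adjusted p 0.00287; without the 2 libraries 1.52, adjusted p 4.65e-05) and passed whichever single tumour was left out. Its antisense neighbour P3H2-AS1 rose as well (log2 fold change 2.48, adjusted p 0.0301, 2 of 10 fits; without the 2 libraries 2.37, adjusted p 0.0178). The strand setting of the counting is not given in the sources used here, so reads of the pair may not be separable.

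MUC15, a membrane-bound mucin, held 9.72, 12.8, 10.3 and 7.77 CPM against 1.67, 3.41 and 4.44, and VTCN1, the T cell inhibitor B7-H4, 19.2, 23, 14.9 and 19.4 against 2.36, 7.03 and 9.48. HYAL1, a lysosomal hyaluronidase, held 15.7, 29.5, 19.6 and 38.8 CPM against 5.83, 8.83 and 13.8, and CLIC3, of the chloride intracellular channel family, 5.53, 8.02, 4.81 and 7.9 against 1.04, 2.07 and 3.2. SYTL5, a synaptotagmin-like protein that binds RAB27 on secretory vesicles, held 37.1, 29.8, 30.7 and 30.2 CPM against 6.97, 13 and 18.6. All of these treated values exceeded the highest Vehicle value of the same gene, in HYAL1 and CLIC3 by the smallest margins. The log2 fold changes were 1.6 for MUC15, 1.54 for VTCN1, 1.54 for HYAL1, 1.69 for CLIC3 and 1.32 for SYTL5, with adjusted p of 0.024, 0.0371, 0.0331, 0.0301 and 0.027. With 8 tumours they were 1.69, 1.62, 1.63, 1.84 and 1.32, with adjusted p of 0.00319, 0.0115, 0.0149, 0.00391 and 0.00885. After the GC content correction of all 10 tumours, CLIC3 alone of these genes missed the threshold (log2 fold change 1.71, adjusted p 0.0516).

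BNIPL, a relative of a BCL2-interacting protein, held 12.8, 16.2, 7.68 and 13.3 CPM against 1.72, 3.0 and 6.24 (log2 fold change 1.91, adjusted p 0.0261). BCO1, which cleaves carotene to retinal, held 2.95, 5.42, 11 and 6.25 CPM against 0.979, 1.27 and 2.9, its highest treated value in RMC-7977 replicate 3 and its highest Vehicle value, just below the lowest treated one, in Vehicle replicate 1 (log2 fold change 2.01, adjusted p 0.0436). FAM177B held 61.5, 59.1, 34.6 and 56.4 CPM against 11, 14.8 and 32.3 (log2 fold change 1.62, adjusted p 0.0265), and KPNA7, an importin of the alpha family, 35.9, 36.6, 25.8 and 32 against 9.98, 11.7 and 24.5 (1.26, 0.0415). CD36, a scavenger receptor that takes up fatty acids, held 202, 193, 214 and 240.3 CPM against 60.9, 76.9 and 137 (log2 fold change 1.22, adjusted p 0.0426). In the fit to 8 tumours the log2 fold changes were 1.96 for BNIPL, 1.86 for BCO1, 1.71 for FAM177B, 1.28 for KPNA7 and 1.36 for CD36. For FAM177B and KPNA7 a single high Vehicle value came close to the treated range.

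These smaller rises leaned on most of the tumours. Without RMC-7977 replicate 1 none of the 10 genes from MUC15 to CD36 above passed, and without RMC-7977 replicate 2 none did (adjusted p up to 0.16, in KPNA7). RMC-7977 replicate 4 or Vehicle replicate 6 or 7 also ended all of these calls with 1 exception, MUC15, which passed without RMC-7977 replicate 4. Without Vehicle replicate 5 only MUC15, VTCN1 and SYTL5 of the 10 passed, without Vehicle replicate 3 only BNIPL, CLIC3, MUC15, HYAL1 and SYTL5, and without Vehicle replicate 2 BCO1 (0.052) and CD36 (0.0508) did not. Without RMC-7977 replicate 3 BCO1 (0.0972), VTCN1 (0.0507), KPNA7 (0.0542) and CD36 (0.0757) did not pass. Without Vehicle replicate 1 all 10 passed, and without both libraries all 10 passed at adjusted p of 0.00127 to 0.0149.

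**Figure D4:**
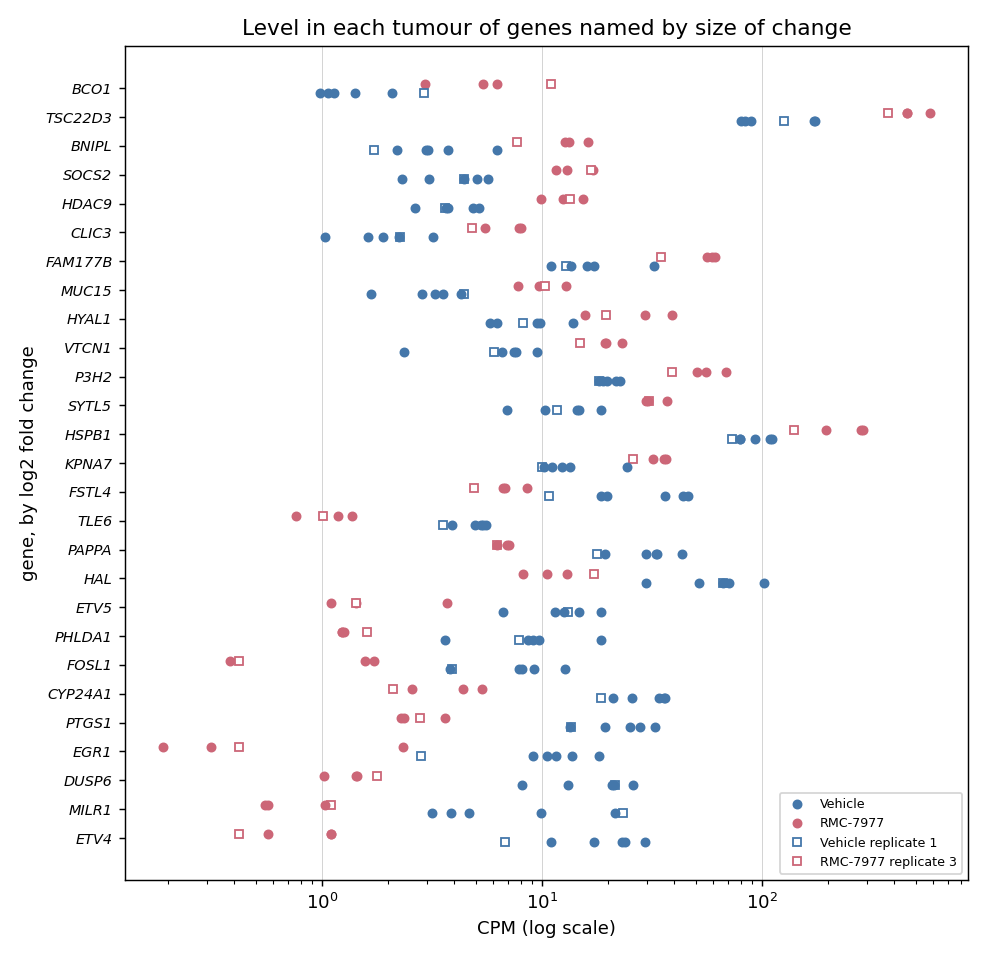
CPM in each tumour (horizontal axis, log scale) of the largest rises and falls named by rule, with Vehicle in blue and RMC-7977 in red and the 2 libraries that stood apart as open squares. The rule took only genes whose red and blue points do not overlap, so this holds in every row by selection. BCO1, KPNA7 and FAM177B show the closest approach of the groups.

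Promoter windows from RefSeq (GRCh38.p14, 250 bases before to 50 after each listed start) were matched by symbol to 58 of the 91 genes. All 8 motifs were searched on both strands. The AP-1 motif TGANTCA and the GC box GGGCGG had the widest gaps, in opposite directions, between risen genes and all tested genes. In TGANTCA, N stands for any base, so its matches were not limited to C or G at that place. Matches with C or G there were not counted apart. The AP-1 motif was in at least 1 window of 8 of 26 risen genes (30.8%) and of 3 of 32 fallen genes (9.38%), beside 788 of 10674 tested genes (7.38%) and 7.71% of all 35116 windows. The GC box was in 12 of the 26 risen genes (46.2%) and 23 of the 32 fallen genes (71.9%), beside 74.9% of tested genes. The FOXO motif GTAAACA was in 3 of 26 (11.5%) and 3 of 32 (9.38%), beside 3.62%, and the ETS motif CCGGAAGT in 0 of 26 and 1 of 32 (3.12%), beside 9.63%. A match is a run of letters and not a known binding site, and these shares were not tested. The 250 bases before 1 listed start are shown for 4 of the 8 risen genes with the AP-1 motif. In each the motif lies upstream of that start, so its place and setting can be compared. HDAC9 has 5 windows, 2 of them with the motif. FAM177B and SYTL5 have 2 windows each, 1 of them with the motif, and SCEL has 1 window. The HDAC9 window shown lies inside the gene, at a start other than its first. The base at N is T in the FAM177B and HDAC9 windows, A in that of SYTL5 and C in that of SCEL. The windows are FAM177B at chr1:222736952-222737201, HDAC9 at chr7:18495460-18495709, SYTL5 at chrX:38006303-38006552 and SCEL at chr13:77535456-77535705, all on the plus strand, with the motif in capitals.
FAM177B: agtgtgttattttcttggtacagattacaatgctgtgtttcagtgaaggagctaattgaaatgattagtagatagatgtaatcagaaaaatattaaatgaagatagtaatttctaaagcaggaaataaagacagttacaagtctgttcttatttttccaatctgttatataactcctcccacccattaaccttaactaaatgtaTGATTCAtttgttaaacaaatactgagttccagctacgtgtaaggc
HDAC9: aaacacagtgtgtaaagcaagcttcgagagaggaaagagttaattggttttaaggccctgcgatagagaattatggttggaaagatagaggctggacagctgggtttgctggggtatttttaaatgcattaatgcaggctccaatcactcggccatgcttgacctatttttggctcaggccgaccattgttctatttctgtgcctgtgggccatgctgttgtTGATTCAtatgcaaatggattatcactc
SYTL5: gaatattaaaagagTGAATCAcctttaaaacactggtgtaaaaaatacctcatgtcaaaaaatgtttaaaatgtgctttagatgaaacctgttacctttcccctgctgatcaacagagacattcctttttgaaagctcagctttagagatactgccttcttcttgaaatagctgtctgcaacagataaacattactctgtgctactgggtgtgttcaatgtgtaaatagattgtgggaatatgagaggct
SCEL: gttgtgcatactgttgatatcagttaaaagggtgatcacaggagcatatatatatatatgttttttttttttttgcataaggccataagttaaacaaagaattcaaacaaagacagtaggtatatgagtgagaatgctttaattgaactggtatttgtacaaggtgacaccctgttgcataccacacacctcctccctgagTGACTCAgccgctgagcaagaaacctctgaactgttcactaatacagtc

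SCEL, chosen here after its values were seen, encodes sciellin, a precursor of the cornified envelope of stratified epithelia. It rose from 97.8 ± 28.4 (SD, n = 6) to 217 ± 22.3 CPM (SD, n = 4; log2 fold change 1.15, adjusted p 0.026; without the 2 libraries 1.36, adjusted p 4.65e-05), and passed in 4 of the 10 fits that left out 1 tumour. A further rise from a low base was also chosen after its values were seen. RPTN, repetin, another cornified envelope gene, had 41, 58, 16 and 26 counts in RMC-7977 replicates 1 to 4 (3.91, 4.56, 1.35 and 1.79 CPM), against 0 counts in 4 Vehicle tumours and 2 counts in each of Vehicle replicates 5 and 6. Its adjusted p was 0.0045 with all 10 tumours and 0.000267 without the 2 libraries, and it passed in all 10 fits that left out 1 tumour.

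Transcripts that code for no protein changed too. LINC01133 held 9.53, 6.61, 5.06 and 7.01 CPM against 1.04, 1.32 and 2.54 in Vehicle (log2 fold change 2.17, adjusted p 0.00915; without the 2 libraries 2.47, adjusted p 0.000377), and dropped out only without RMC-7977 replicate 1 (0.0593). AC004585.1 held 0.0953, 0.629, 0.591 and 0.55 CPM against 2.27, 4.2 and 5.93 (log2 fold change -3.10, adjusted p 0.00791; without the 2 libraries -3.24, adjusted p 0.00173) and passed in all 10 fits. AL391422.1 rose (log2 fold change 2.2, adjusted p 0.0278) and AL162582.1 and AL365356.5 fell (-3.86, 0.0234 and -2.58, 0.0331). In the fit to 8 tumours these last 3 had log2 fold changes of 2.24, -3.62 and -2.43, with adjusted p of 0.0086, 0.0116 and 0.0159. They passed in 4, 5 and 3 of the 10 fits, and none of them passed without RMC-7977 replicate 1 or 2 or Vehicle replicate 5, 6 or 7.

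In the core RAS pathway 1 of 36 tested members rose and 1 fell with all 10 tumours, beside 0.228% and 0.333% of all genes. Without the 2 libraries 8 of 36 rose and 2 fell, beside 4.22% and 4.23% of all genes. With all 10 tumours 48.9% of all genes had a positive fold change. GAB1, an adaptor that carries receptor signals to PI3K and SHP2, rose (34.9, 34.3, 41.9 and 32.6 CPM against 17.6, 20.2 and 23.2, log2 fold change 0.84, adjusted p 0.0261; without the 2 libraries 0.76, adjusted p 0.00392), SPRED1 fell as given above, and 26 of 36 had a positive fold change, with a median of 0.24. The GAB1 call was kept only without Vehicle replicate 1, 2 or 3 (adjusted p up to 0.109 in the other fits). Among the genes that rose without the 2 libraries were MAPK3, which encodes an ERK kinase (log2 fold change 0.72), GAB2 (0.76), MRAS (0.53), SOS2 (0.45), RAP1A (0.47) and BRAF (0.39), while SPRED1 and the scaffold KSR1 fell (-1.14 and -0.84).

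The lists of growth functions held mostly negative fold changes and no call in the 10-tumour fit. In DNA replication 29 of 30 genes had a negative fold change (median -0.32), in mitosis 25 of 28 (-0.26), in ribosome biogenesis 24 of 25 (-0.38) and in nucleotide and one-carbon synthesis 22 of 26 (-0.23), beside 51.1% of all genes tested. Genes of 1 pathway vary together, so these shares carry fewer independent values than their counts. RRM2, a subunit of ribonucleotide reductase, held 40.7, 50.01, 57.6 and 48.4 CPM against 61.5, 97.8 and 128 (log2 fold change -0.95, adjusted p 0.0584), and NOP56, a core protein of ribosomal RNA modification, 99.1, 97.6, 99.2 and 92.4 against 132, 143 and 164 (-0.57, 0.0709). In both genes the groups did not overlap. At an unadjusted p under 0.05 edgeR counted 11, 3, 11 and 3 members of these 4 lists, all lower, while DESeq2 called 3, 0, 4 and 1 and limma voom 13, 4, 11 and 6, again all lower. Over all 16212 genes tested, edgeR counted 2076 in either direction at that unadjusted p. DESeq2 called 403 genes lower and 267 higher, and limma voom 1252 lower and 1528 higher. In the fit to 8 tumours 6, 4, 4 and 6 members of these lists fell and none rose, RRM2 (adjusted p 0.0119), NOP56 (0.00674), CDK1 (0.0337) and CAD (0.0303) among them, beside the 4.23% of all genes that fell. Of 11 replication-dependent histone genes 10 were negative (median -0.47), with no call by edgeR in either fit, 3 lower at an unadjusted p under 0.05, 1 by DESeq2 and 2 by limma voom.

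Cholesterol synthesis had mostly positive fold changes and no call. Of its 24 genes 22 had a positive fold change, beside 48.9% of all genes tested, with a median of 0.38. No gene of the list was called by edgeR with all 10 tumours or without the 2 libraries (median 0.45). At an unadjusted p under 0.05, 5 were higher with all 10 tumours, and DESeq2 called 2 and limma voom 8, all higher. These stand beside the counts over all genes given with the growth lists. INSIG1, which holds back SREBP when sterols are high, had 90.04, 148, 152 and 153 CPM against 38.5, 72.2 and 90.1 (log2 fold change 1.01, adjusted p 0.0879), and its lowest treated value lay just below the highest Vehicle value. LSS, lanosterol synthase, had 138, 164, 119 and 239 CPM against 48.6, 69.8 and 147 (1.09, 0.139), with overlapping groups. Without the 2 libraries the log2 fold changes of INSIG1 and LSS were 1.01 and 1.11 (adjusted p 0.0807 and 0.108). Leaving out Vehicle replicate 1 brought both past the threshold (0.0205 and 0.0481).

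Hypoxia genes, cytokines and ephrins had mostly negative log2 fold changes, beside 51.1% of all genes tested, and those that fell without the 2 libraries stand beside 4.23% of all genes. Their unadjusted, DESeq2 and limma voom counts stand beside the counts over all genes given with the growth lists. In glycolysis and hypoxia 23 of 28 were negative (median -0.27) with no call by edgeR (7 lower at an unadjusted p under 0.05, 2 by DESeq2, and 8 lower and 1 higher by limma voom), and 5 of 28 fell without the 2 libraries. ENO2, the neuronal enolase, held 8.29, 11.2, 4.56 and 9.28 CPM against 6.53, 29 and 39.9, and its lowest Vehicle value, that of replicate 1, lay within the treated range. Its log2 fold change was -1.72 with all 10 tumours and -1.73 without the 2 libraries, and the adjusted p went from 0.0876 to 0.00023. Of 17 inflammatory cytokines and chemokines 16 were negative (median -0.62), with no call by edgeR, 6 lower at an unadjusted p under 0.05, 2 by DESeq2 and 6 by limma voom. CXCL2, a neutrophil chemokine, held 3.24, 3.224, 4.89 and 6.94 CPM against 7.44, 12.2 and 27.4 (adjusted p 0.101 and 0.0572 without the 2 libraries) and CXCL8 5.05, 5.27, 13.4 and 7.56 against 8.51, 17.6 and 36.4 (adjusted p 0.158 and 0.0589). Without the 2 libraries the median was -0.82, and 2 of 18 fell, IL33 (-1.40) and CXCL3 (-1.27). Of 12 ephrins and their receptors 10 were negative (median -0.42), edgeR called none (2 lower at an unadjusted p under 0.05, 1 by DESeq2, and 5 lower and 1 higher by limma voom), and 4 of 12 fell without the 2 libraries (EPHB2, EFNA5, EPHA2 and EPHB4).

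**Figure D5:**
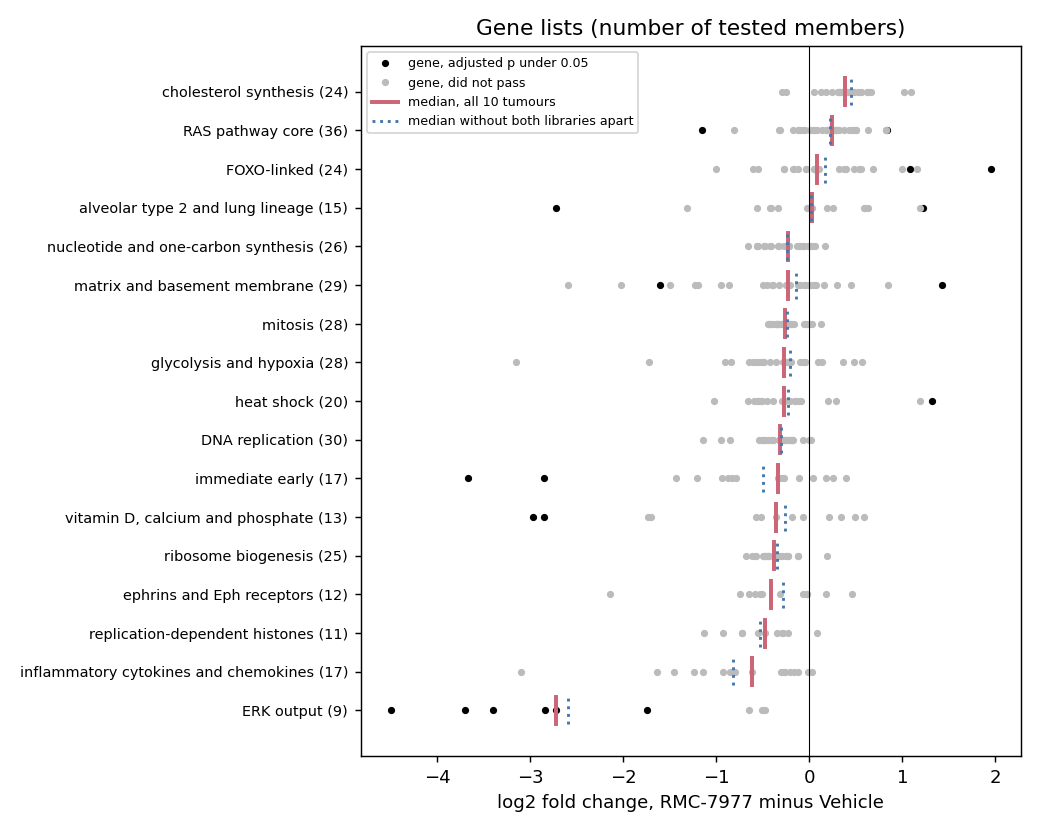
Log2 fold change (RMC-7977 minus Vehicle, horizontal axis) of each tested member of the 17 lists described, with genes past an adjusted p of 0.05 in black, the list's median over all 10 tumours as a red bar and its median without both libraries as a blue dotted bar. The medians of the 2 fits lie close together, with the ERK output list furthest left at -2.72 and cholesterol synthesis furthest right at 0.38.

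In the matrix and basement membrane list 1 of 29 rose (P3H2) and 1 fell (THBS1), beside 0.228% and 0.333% of all genes, and the median was -0.23. LAMB1 (-1.02), COL12A1 (-1.68), COL7A1 (-0.92) and TNC fell too when the 2 libraries were left out, beside 4.23% of all genes. Of 15 alveolar type 2 and lung lineage genes CD36 rose, ETV5 fell, 8 were positive and the median was 0.03. For all genes tested these shares were 0.228%, 0.333% and 48.9%. When both libraries were left out, SLC34A2, a phosphate carrier of alveolar type 2 cells, rose (0.63) and the proteoglycan SDC1 fell (-0.49).

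Of the genes that passed without the 2 libraries and not with all 10 tumours, the largest by rule were PRODH, BATF3 and DNAH2. PRODH, proline dehydrogenase, held 7.43, 5.82, 0.169 and 17.8 CPM against 0.23, 1.75 and 2.64 in Vehicle, so that RMC-7977 replicate 3 lay below all Vehicle tumours and the other 3 treated tumours above them (adjusted p 0.217 with all 10, 0.0287 without the 2). BATF3, an AP-1 family factor, held 0.762, 0.786, 0.844 and 0.962 CPM against 0.972, 4.37 and 9.88, its highest Vehicle value in replicate 1 (adjusted p 0.0669 and 0.0332). DNAH2, a dynein of motile cilia, held 2.38, 4.25, 0.928 and 3.64 CPM against 5.26, 12.7 and 21.8 and missed the threshold narrowly with all 10 tumours (log2 fold change -2.19, adjusted p 0.0509; 0.00173 without the 2). BATF3 and DNAH2 also passed without Vehicle replicate 1 alone (0.0207 and 0.00531) or Vehicle replicate 2 alone (0.0103 and 0.0376), and PRODH in no fit that left out 1 tumour.

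The labelled cell type was checked against its markers. The 11 epithelial markers summed to 5952 to 7105 CPM in Vehicle and 4652 to 8007 CPM under RMC-7977, lowest in RMC-7977 replicate 3. Lung adenocarcinoma markers were low, 21.1 to 114 CPM in Vehicle and 50.4 to 183 CPM under RMC-7977, mostly from SLC34A2. Among the others, NKX2-1 held 0.355 to 6.03 CPM in Vehicle and 0.253 to 16.3 under RMC-7977. SFTPB held 0.37 to 16.5 CPM in Vehicle and 0.274 to 3.14 under RMC-7977. Of cell types a host could add, endothelial markers summed to 44.8 to 198 CPM in Vehicle and 23.9 to 79.1 CPM under RMC-7977 (ROBO4 at 0), fibroblast and pericyte markers to 24.7 to 310 and 93.9 to 214 CPM (mostly COL1A1, with POSTN at 0), and T, B and NK cell, blood, and muscle and fat markers to no more than 9.35 CPM in any tumour. Whether host reads were removed before counting is not given in the sources used here, and the part of host RNA in these results was not tested.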

How the data were processed

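The authors deposited unnormalized read counts for 58735 genes. Per the submitters' processing notes, tools named are featureCounts (1.5.0-p3) and HISAT2 (2.0.5), with fastp, edgeR (3.22.5) and DESeq2 (1.20.0), and the genome is hg38. Strand setting and annotation release are not given there.

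Counts of the 10 tumours were analysed in R (4.3.3) with edgeR (4.0.16): filterByExpr with a minimum of 10 (16212 genes, 99.749% of counts), TMM scaling, a robust quasi-likelihood fit with 1 mean per group, 2-sided F-tests and Benjamini-Hochberg adjustment over all genes tested, with a threshold of 0.05. CPM used TMM library sizes. The same steps were run without RMC-7977 replicate 3 and Vehicle replicate 1 (16499 genes). GC content is that of the longest GENCODE transcript of a gene. Alternatives were RLE scaling, other filters, DESeq2 (1.42.0), limma (3.58.1) voom with library weights, all 22 tumours in 1 model, a replicate block, a GC content correction and leaving out each tumour.

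Named genes were, for protein-coding genes called in both fits with groups that do not overlap and a mean of 1 or more on the log2 CPM scale, the 14 largest changes each way, the 5 largest each way by difference in CPM, up to 3 non-coding genes each way, the 3 of smallest p in each list described, and the largest genes called in a single fit. Groups that do not overlap were thus a condition for naming a gene by the size of its change, and not a result. Lists were described at length where at least 2 members were called or at least 80% of 8 or more tested members had the same sign. A few genes that these rules name are not reported here. Gene lists, members and motifs were chosen with earlier results of these data known.

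The test was checked on simulated counts with 200 changed genes. With all 10 tumours (16081 genes) it found 5.97%, 50.7% and 95.5% of 1.5-, 2- and 4-fold changes, with 2 false among 103 calls. Without the 2 libraries (16381 genes) it found 34.3%, 74.6% and 92.4%, with 7 false among 141. Every simulated library had the same mean profile apart from the changed genes. The counts thus held no GC trend and no library that stood apart, and these rates may not hold for the real data.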

Additional observations from a re-analysis of the deposited data

Results flagged for a closer look

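Of 166 combinations of a named gene and a group, 14 held a tumour set apart from the others of its group by Dixon's test on log2 CPM. Chance gives this in about 1 of 20 groups. The values below are CPM. Among called genes, FAM177B in RMC-7977 replicate 3 was at 34.6 CPM, with the others of the group at 56.4 to 61.5. SYTL5 in RMC-7977 replicate 1 was at 37.1, with the others at 29.8 to 30.7. PHLDA1 in RMC-7977 replicate 3 was at 1.603, with the others at 1.24 to 1.26, and AC004585.1 in RMC-7977 replicate 1 at 0.0953, with the others at 0.550 to 0.629. Both genes were low in the treated tumours, so few reads set these gaps. VTCN1 in Vehicle replicate 5 was at 2.36, with the others at 6.08 to 9.48, and KPNA7 in Vehicle replicate 2 at 24.5, with the others at 9.98 to 13.4. EGR1 in Vehicle replicate 1 was at 2.81, with the others at 9.15 to 18.1.

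Among genes named from lists, ENO2 in Vehicle replicate 1 was at 6.53 CPM, with the others at 22.6 to 39.9, and DHODH in the same tumour at 10.2, with the others at 16.9 to 21.3. EFNB2 in Vehicle replicate 2 was at 6.64, with the others at 20.8 to 35.9, and HIST1H4H in Vehicle replicate 3 at 64.9, with the others at 36.5 to 45.2. INSIG1 in RMC-7977 replicate 1 was at 90.04, with the others at 148 to 153, and HIST1H2BD in the same tumour at 8.86, with the others at 12.0 to 12.7. CTPS1 in RMC-7977 replicate 4 was at 52.7, with the others at 46.6 to 46.9. Vehicle replicate 1 and RMC-7977 replicate 3, the libraries that stood apart, account for 5 of the 14.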

How the results depend on the processing

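No named gene changed direction under any setting, and 7 of 340 list medians moved by more than their spread. The counts of calls (91 genes, 37 higher and 54 lower) depended on the setting more than the directions did. They were 90 (36 and 54) with RLE scaling, 88 (35 and 53) at a mean CPM of at least 1, and 132 (53 and 79) with all 22 tumours in 1 model, 74 of them shared. They were 226 (89 and 137) with no filter on low counts, 244 (106 and 138) after the GC content correction, 670 (267 and 403; 7 adjusted p values not given) by DESeq2, and 2780 (1528 and 1252) by limma voom with library weights. Limma voom thus called 55.0% of its genes higher, against 40.7% in the edgeR fit. Leaving out 1 tumour gave 18 to 1257 calls (7 to 635 higher, 11 to 622 lower). Leaving out both libraries gave 1395 (697 and 698), and doing so with the GC content correction, which was added after seeing the data, 1119 (562 and 557). The replicate block on the 6 tumours whose number both groups hold gave 0 calls (0 higher, 0 lower) by edgeR's quasi-likelihood test, with 252 genes at an unadjusted p under 0.05. Same-numbered tumours did not deviate together (correlations of -0.276, 0.036 and -0.210 for numbers 1, 2 and 3), and none correlated best with its own number. Numbers 1 and 3 each include a library that stood apart by GC content, so this check cannot exclude that the numbers pair the tumours. In the simulated counts, most changes of 1.5-fold were missed with all 10 tumours.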

Other observations

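The groups of genes in this part were put together after the values of single genes were seen, so their counts are descriptions. Genes of the motile cilium axoneme were mostly lower under RMC-7977: 47 of 55 tested had a negative log2 fold change, with a median of -0.67, and 2 fell, the outer dynein arm heavy chain DNAH5 (8.01 ± 2.81 to 2.52 ± 0.556 CPM; SD, n = 6 and 4; adjusted p 0.0331) and the assembly factor CFAP300 (3.7 ± 0.669 to 1.12 ± 0.311 CPM; adjusted p 0.0273). Over all genes tested, 51.1% had a negative log2 fold change and 0.333% fell. Without RMC-7977 replicate 3 and Vehicle replicate 1, 21 of 55 fell and none rose (median -0.66), the ciliary regulators FOXJ1 (-1.09, adjusted p 0.00927) and RFX2 (-0.66, 0.0483) among them, beside 4.23% of all genes that fell.

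Genes of RAB27- and RAB3-dependent secretion were mostly higher. Of 27 tested 22 had a positive log2 fold change (median 0.40), beside 48.9% of all genes. SYTL5 and SYTL4, both RAB27 effectors, rose (1.32 and 1.01, adjusted p 0.027 and 0.0485), beside 0.228% of all genes. Without the 2 libraries 10 of 28 rose and 1 fell. RAB27A (0.56, adjusted p 0.0487), RAB27B (0.51, 0.0226), SYTL2 (1.03, 0.028) and RAB37 (1.34, 0.00629) were among the 10, beside 4.22% of all genes that rose.

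Of 13 tested cornified envelope genes RPTN and SCEL rose and none fell, with all 10 tumours (median log2 fold change 0.18) and without the 2 libraries (0.35), beside 0.228% and 4.22% of all genes that rose. In histidine breakdown HAL fell, 1 of 3 tested, beside 0.333% of all genes, and without the 2 libraries AMDHD1, which acts later in the same route, fell with it (-1.29, adjusted p 0.0334).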
